A study of Homo sapiens with 6 samples.

Results

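The 10 genes described here encode parts of the integrated stress response: 3 kinases of the translation factor eIF2α (EIF2AK1, EIF2AK3, EIF2AK4), the 2 subunits that direct a phosphatase to it (PPP1R15A, PPP1R15B), and 5 effectors on the arm of the transcription factors ATF4 and CHOP (ATF4, ATF5, DDIT3, TRIB3, GDF15). They were chosen by name as genes of the pathway, with earlier results of these data known, and all 10 were found among the 25071 genes of the count table. Counts came from RNA-seq of the human hepatoma line PLC/PRF/5 in 6 libraries. The cells had been transfected 48 hours before harvest, for 3 libraries with a control vector and for the other 3 with an ARD1 overexpression plasmid. The gene symbol of ARD1 is NAA10, and its product acetylates protein N-termini. Separate cultures are not mentioned in the labels, so the p-values describe the spread among these libraries only, which may be technical.

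In the integrated stress response, different kinases sense different troubles and all phosphorylate the same site of eIF2α: EIF2AK1 (HRI) responds to heme shortage and to mitochondrial stress, EIF2AK3 (PERK) to unfolded proteins in the endoplasmic reticulum, and EIF2AK4 (GCN2) to uncharged tRNA. Phosphorylated eIF2α blocks its exchange factor eIF2B, which lowers general translation while messages with upstream open reading frames, such as those of ATF4, ATF5, DDIT3 and PPP1R15A, are translated better. ATF4 then induces genes of amino acid supply and the gene of CHOP, DDIT3, and PPP1R15A (GADD34) brings protein phosphatase 1 to eIF2α and closes the loop. Much of this control acts on translation and on phosphorylation, which RNA counts do not measure.

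NAA10 itself, the transfected gene, stood at 35.6, 32.2 and 36.2 CPM (counts relative to the library's total, scaled by the TMM method) in the control libraries and at 355, 400.2 and 294 CPM in the ARD1 libraries. A library held between 21857327 and 25011357 counts, and 3 counts, the limit taken as detection, correspond to 0.112 to 0.143 CPM. The library of control replicate 1 differed most within its group: chi-square values divided by their degrees of freedom were 13.6 and 15.8 for its pairs and 2.31 to 3.77 for all other pairs inside a group. Of the 10 hepatocyte-lineage markers, 7 had enough counts to be tested, of which 2 rose and 4 fell. As background for all marker counts here, 32.4% of all genes tested rose and 32.2% fell. Named outside the rule given below, SERPINA1 (0.535 to 2.17 CPM) and APOB rose, and ALB (315 to 36.3 CPM), AFP, TF and FGB fell. The adjusted p of APOB reached 0.538 under another setting. The summed level of all 10 ran from 701 to 738 CPM in the controls and from 174 to 196 CPM in the ARD1 libraries. Its largest parts in the controls were ALB, FGB (228 CPM) and TF (161 CPM). GPC3, a hepatoma marker, had at most 3 counts in a library. APOA1, TTR and AHSG, also named outside the rule, had means under 1 CPM in both groups. Summed markers of other cell types ran from 69.2 to 82.2 CPM (controls) and from 90.02 to 103 CPM (ARD1) for 4 endothelial genes, from 78.0 to 98.5 and from 17.6 to 20.2 CPM for 5 fibroblast genes, and from 13.8 to 15.1 and from 5.32 to 6.15 CPM for 4 immune genes. Of the endothelial genes 3 rose while CDH5 fell from 33.1 to 0.0677 CPM, of the fibroblast genes 1 rose and 2 fell, and of the immune genes 2 were tested and both fell. Their part in the results below was not tested, and in RNA from bulk cells fewer cells of a kind and less RNA per cell cannot be told apart.

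Upstream sequences of 3 genes are shown because they belong to both phosphatase subunits and to the kinase that passed the test, and because each holds a different motif. They are the bases before the RefSeq transcript start (GRCh38.p14), within a window of 250 bases, without bases that GENCODE 29 places in an exon. Capitals mark a match to a motif searched on both strands: the CRE (TGACGTCA) bound by CREB and ATF factors, the C/EBP-ATF element (TGATGNAA) bound by ATF4 with C/EBP partners, or the AP-1 site (TGANTCA). The endoplasmic reticulum stress element was searched as well.
PPP1R15A, chr19:48872171-48872391, plus strand: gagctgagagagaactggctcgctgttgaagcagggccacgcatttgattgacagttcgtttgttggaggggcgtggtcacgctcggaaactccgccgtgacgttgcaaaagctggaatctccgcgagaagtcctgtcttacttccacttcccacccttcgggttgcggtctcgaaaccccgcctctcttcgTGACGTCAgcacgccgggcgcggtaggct
PPP1R15B, chr1:204411818-204412067, minus strand: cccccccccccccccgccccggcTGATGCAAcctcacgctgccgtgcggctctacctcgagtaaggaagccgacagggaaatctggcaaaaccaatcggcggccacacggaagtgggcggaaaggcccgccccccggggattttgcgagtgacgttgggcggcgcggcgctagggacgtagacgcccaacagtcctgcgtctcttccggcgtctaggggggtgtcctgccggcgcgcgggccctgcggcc
EIF2AK4, chr15:39933865-39934114, plus strand: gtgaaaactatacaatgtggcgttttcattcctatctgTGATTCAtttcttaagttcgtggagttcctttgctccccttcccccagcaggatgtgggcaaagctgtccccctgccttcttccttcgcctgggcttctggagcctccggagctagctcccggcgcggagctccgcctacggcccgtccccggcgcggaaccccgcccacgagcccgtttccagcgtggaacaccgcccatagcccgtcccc

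Promoter windows from 250 bases before to 50 after the start were found for 9 of the 10 genes. Some genes have more than 1 window, so shares are given per window and per gene. The CRE of PPP1R15A begins 58 bases before its start, and the motif was found in 1.85% of all 35116 windows and 2.25% of genes. The C/EBP-ATF element of PPP1R15B begins 227 bases before its start, and 3.62% of all windows and 4.46% of genes hold one. Neither motif was found in the window of another gene of the 9. AP-1 letters, found in 7.71% of windows and 9.37% of genes, were present for EIF2AK4 (212 bases before the start), ATF5 and DDIT3. The endoplasmic reticulum stress element, found in 0.0769% of windows, was in none of the 9. A match says only that the letters are there. The absence of one says nothing of elements outside the window or of imperfect copies inside it.

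The kinase genes did not move together. EIF2AK4, the kinase that senses uncharged tRNA, was 1.60-fold higher in the ARD1 libraries, while EIF2AK1 and EIF2AK3 did not pass the test. Of the 10 genes, 6 rose, 1 fell and 3 did not pass an adjusted p of 0.05 in edgeR's quasi-likelihood test. All 10 had enough counts to be tested. Of all 15816 genes tested, 64.6% passed, 32.4% as higher and 32.2% as lower, so a count of 7 in 10 is near the background. The median log2 fold change was 0.53 over the 10 genes and 0.03 over all genes tested.

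EIF2AK4 (chromosome 15, 39934146 to 40035591, plus strand, GRCh38 and GENCODE 29, as for all gene positions) was counted at 53.1, 50.9 and 52.0 CPM in the control libraries and at 81.9, 85.9 and 82.3 CPM in the ARD1 libraries. The groups did not overlap, as was the case for 69.6% of all genes tested, and each library lay within a few CPM of its group's mean. The log2 fold change was 0.68 (SE 0.0708, adjusted p = 8.83e-07), and it ranged from 0.58 to 0.95 over the alternative settings.

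EIF2AK1 (chromosome 7, 6022244 to 6059230, minus strand) stood at 303, 289 and 298 CPM in the controls and at 297, 304 and 299.5 CPM in the ARD1 libraries. The groups overlapped, with a log2 fold change of 0.02 (95% interval -0.12 to 0.15, adjusted p = 0.842). EIF2AK3 (chromosome 2, 88556741 to 88627576, minus strand) stood at 31.5, 31.9 and 32.1 CPM in the controls and at 32.9, 34.9 and 30.4 CPM in the ARD1 libraries. Here too the groups overlapped, and the interval of the log2 fold change ran from -0.14 to 0.22 (estimate 0.04, adjusted p = 0.703). With library totals in place of TMM scaling both passed as higher, EIF2AK1 at 0.28 (adjusted p = 0.000603, with 0.986 as the highest under any setting) and EIF2AK3 at 0.30 (adjusted p = 0.00656, with 0.934 as the highest), and with GC and length trends removed both estimates were below 0. Library totals move the median of all genes from 0.03 to 0.30 and the share of called genes that are higher from 50.2% to 68.6%. Relative to that median EIF2AK1 stood at -0.01 and EIF2AK3 at 0.01. Exons of AIMP2 lie opposite 9.59% of EIF2AK1 exon bases, and exons of noncoding genes lie opposite 15.1% of those of EIF2AK3.

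EIF2AK2 (PKR), the kinase of this family that responds to double-stranded RNA and is not among the 10 genes, was at 111 ± 9.84 and 120.4 ± 7.41 CPM (SD, n = 3) and did not pass (0.11, adjusted p = 0.228). It passed as higher with library totals (0.38) and as lower once GC and length trends were taken out (-0.25, adjusted p = 0.000311, between 0.000300 and 0.618 over all other settings). The make-up of the kinase transcripts within a library was taken from counts per kilobase of the longest coding transcript. No scaling between libraries enters, but a library's GC and length trends are not removed from these shares. EIF2AK1 made up 70.8% ± 1.06 of the 4 kinases' transcripts in the controls and 66.2% ± 0.342 in the ARD1 libraries (SD, n = 3), the largest share in every library. The share of EIF2AK4 went from 10.3%, 9.99% and 9.998% to 14.8%, 15.3% and 14.8%. EIF2AK2 held 11.8% in both groups and EIF2AK3 7.31% and 6.95%. With GC and length trends removed EIF2AK2 was at -0.25 and EIF2AK1 at -0.07, so an equal share of EIF2AK2 is not settled. With the length of all exon bases the share of EIF2AK4 was 5.87% ± 0.103 and 8.91% ± 0.187. This gene has 11957 exon bases, against 5499 in its longest coding transcript.

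**Figure D1:**
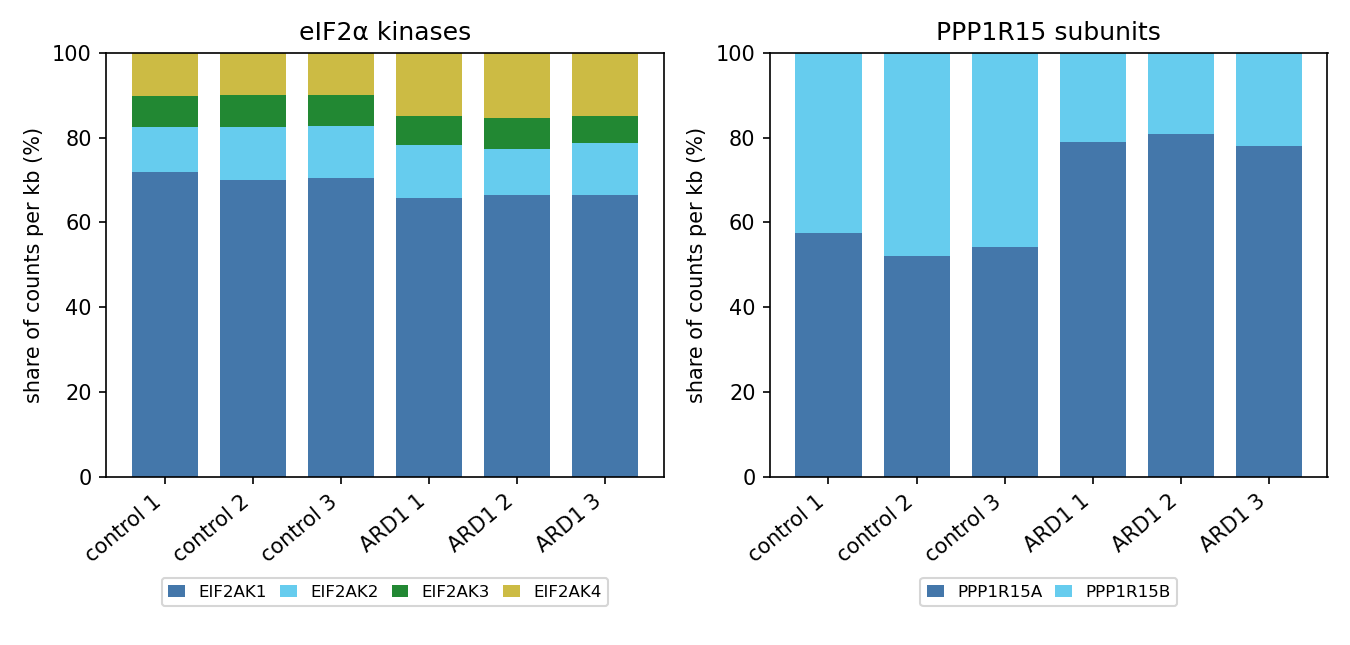
Share of each gene in the counts per kilobase of its family within a library (vertical axis, percent) for the 3 control and 3 ARD1 libraries, with eIF2α kinases on the left and PPP1R15 subunits on the right. Lengths are those of the longest coding transcript. EIF2AK4 takes about 10% of the kinase transcripts in each control library and about 15% in each ARD1 library, and PPP1R15A goes from 52.1% to 57.6% of its family in the controls to 78.1% to 80.8%.

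Both phosphatase subunits rose, the inducible PPP1R15A far more than the constitutive PPP1R15B. PPP1R15A (chromosome 19, 48872392 to 48876057, plus strand) was at 74.7, 66.5 and 68.8 CPM in the controls and at 284, 320.3 and 269 CPM in the ARD1 libraries. The lowest ARD1 library was well above the highest control, and the gene was 4.16-fold higher (log2 fold change 2.06, SE 0.0826, adjusted p = 3.21e-11). PPP1R15B (CReP; chromosome 1, 204403387 to 204411791, minus strand) was at 121, 134 and 128 CPM in the controls and at 166, 167 and 166 CPM in the ARD1 libraries. The groups did not overlap, and the 1.30-fold difference (log2 fold change 0.38, SE 0.0682, adjusted p = 0.000191) shrank to 0.20 with GC and length trends removed and grew to 0.64 with library totals.

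Per kilobase of transcript, PPP1R15A stood at 29.4 ± 1.77 and PPP1R15B at 24.5 ± 1.29 CPM in the controls, and at 122 ± 11.1 and 31.8 ± 0.188 CPM in the ARD1 libraries. PPP1R15A thus made up 54.6% ± 2.77 of the transcripts of this pair in the controls and 79.3% ± 1.36 with the ARD1 plasmid (SD, n = 3). With the length of all exon bases its share was 48.0% ± 2.79 and 74.7% ± 1.57. The log2 ratio of PPP1R15A to PPP1R15B counts within a library was -0.70, -1.01 and -0.90 in the controls and 0.78, 0.94 and 0.70 in the ARD1 libraries. The ratio was 3.19-fold higher with no overlap between groups (difference 1.67, two-sided exact permutation p = 0.1, 0.125 adjusted over 5 pairs). With 3 libraries against 3 an exact p of 0.1 is the smallest possible. The ratio keeps a library's GC and length trends. With those removed the log2 fold change was 2.34 for PPP1R15A and 0.20 for PPP1R15B, a wider gap.

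**Figure D2:**
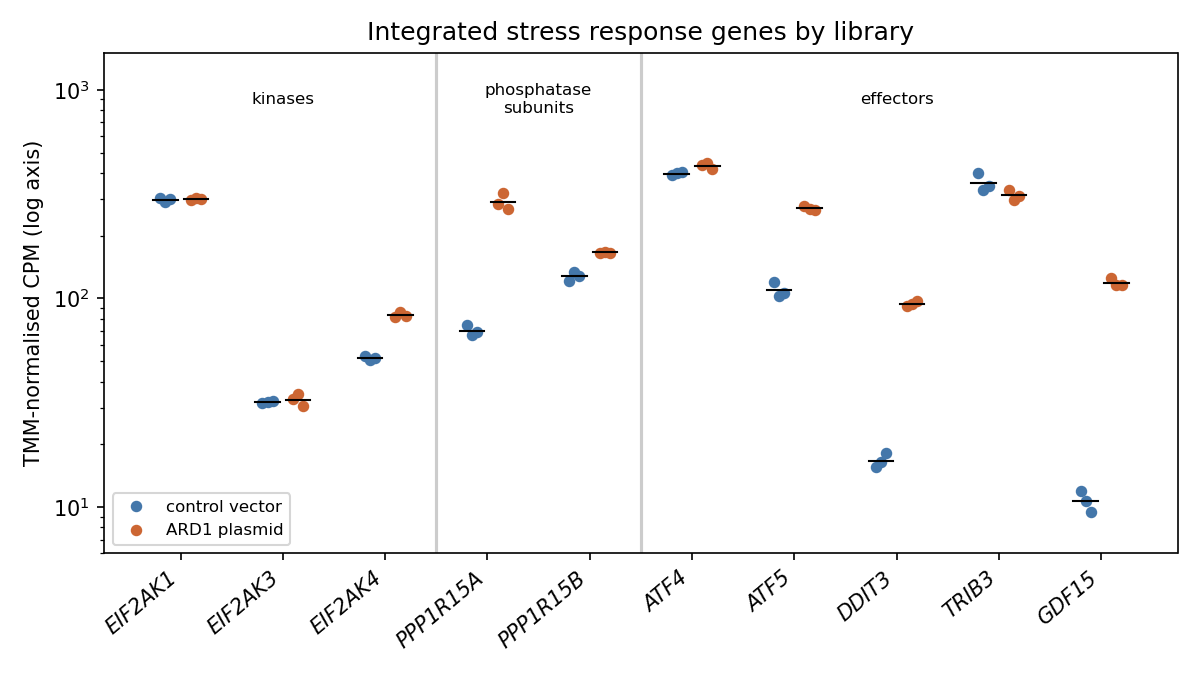
TMM-normalised CPM (vertical log axis) of the 10 genes in each library, control vector in blue and ARD1 plasmid in orange, with black lines at the group means. GDF15, DDIT3, PPP1R15A and ATF5 separate widely, the ranges of the groups overlap for EIF2AK1 and EIF2AK3, and TRIB3, whose direction turns with library totals or GC and length offsets, has its ARD1 points below its controls.

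The effectors split. GDF15, DDIT3 and ATF5 rose between 2.47-fold and 11.1-fold and ATF4 did not pass the test. TRIB3 passed as lower, a direction that turned with GC and length trends removed and with library totals. ATF4 (chromosome 22, 39519695 to 39522685, plus strand), the transcription factor at the centre of the response, was counted at 392, 397 and 402 CPM in the controls and at 435, 444 and 416 CPM in the ARD1 libraries. Every ARD1 library was higher than every control, by a small margin, and the difference failed the test (0.12 on the log2 scale, 95% interval -0.02 to 0.26, adjusted p = 0.109). ATF4 passed with library totals (0.39), with GC and length trends removed (0.35), with upper-quartile scaling (0.16) and without control replicate 1 (0.10). Its adjusted p ranged from 6.43e-06 to 0.321 over the alternatives. GENCODE 29 lists 4 pseudogenes of ATF4, and how reads shared with them were counted is unknown, so its level is uncertain.

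ATF5 (chromosome 19, 49928702 to 49933935, plus strand), a close relative of ATF4 linked to mitochondrial stress, was at 119.9, 103 and 106 CPM in the controls and at 278, 268 and 266 CPM in the ARD1 libraries. The groups were far apart, with a 2.47-fold rise (log2 fold change 1.31, SE 0.0747, adjusted p = 1.40e-09). Exons of IL4I1 and NUP62 lie opposite 21.2% of its exon bases, and which strand was counted is unknown, so reads of either strand may be included.

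DDIT3 (chromosome 12, 57516588 to 57521737, minus strand), which encodes the stress transcription factor CHOP, was at 15.6, 16.5 and 18.1 CPM in the controls and at 91.5, 93.9 and 96.8 CPM in the ARD1 libraries. The 3 libraries of each group were close together, and the gene was 5.62-fold higher (log2 fold change 2.49, SE 0.0838, adjusted p = 5.14e-12). MARS1 and MBD6 exons lie opposite 31.6% of its exon bases, and 8.03% are shared with a noncoding gene on the same strand. MARS1 itself went from 278 ± 15 CPM to 313 ± 2.93 CPM (SD, n = 3), a rise of 0.17 with adjusted p = 0.0345 that was lost under 8 of the 17 other settings.

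GDF15 (chromosome 19, 18374731 to 18389176, plus strand), a secreted stress cytokine induced by CHOP, ATF4 and p53, showed the widest change of the 10 genes. It was at 11.96, 10.7 and 9.47 CPM in the controls and at 125, 116 and 116 CPM in the ARD1 libraries. The rise was 11.1-fold (95% interval 9.66 to 12.8; log2 fold change 3.48, SE 0.0954, adjusted p = 5.96e-13), which gave it rank 83 from the top of all 15816 genes, against rank 209 for DDIT3, 356 for PPP1R15A and 939 for ATF5. Of all genes tested 9.71% passed as higher with a log2 fold change of at least 1, as did these 4 of the 10.

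TRIB3 (chromosome 20, 362835 to 397559, plus strand) encodes a pseudokinase that is a textbook target of ATF4 and CHOP and that restrains both. It was abundant in the controls, at 400.3, 331 and 347 CPM, and stood at 329, 295 and 311 CPM in the ARD1 libraries. The groups did not overlap, but the margin between the lowest control and the highest ARD1 library was under 2 CPM. With TMM scaling it passed as 1.15-fold lower (log2 fold change -0.20, SE 0.0799, adjusted p = 0.0355). The direction was not stable: TRIB3 was at 0.06 with library totals (adjusted p = 0.425) and, with GC and length trends taken out, passed as higher at 0.14 (adjusted p = 0.0221). Over all settings its adjusted p ran from 0.0122 to 0.425. Without ARD1 replicate 2 it no longer passed (-0.17), nor without ARD1 replicate 3 (-0.20) or with upper-quartile scaling (-0.16). Across all settings its log2 fold change stayed between -0.29 and 0.14, while that of DDIT3 stayed between 2.43 and 2.75.

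**Figure D3:**
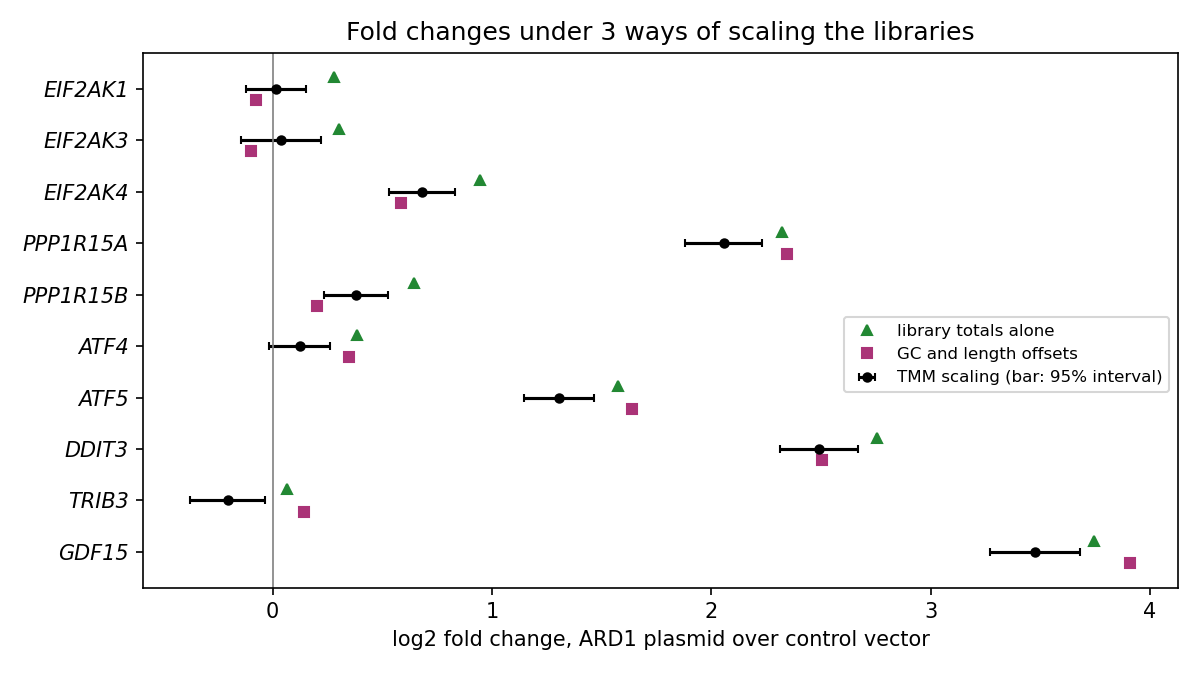
log2 fold change of each gene, ARD1 plasmid over control vector (horizontal axis), with TMM scaling and its 95% interval in black, with library totals alone as green triangles and with GC and length offsets as purple squares. GDF15, DDIT3, PPP1R15A, ATF5 and EIF2AK4 stay right of 0.5 under all 3, and TRIB3 changes side of 0.

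Ratios within a library separate the effectors from ATF4 without any scaling between libraries, although a library's GC and length trends remain in such ratios. The log2 ratio of DDIT3 to ATF4 was -4.65, -4.59 and -4.47 in the controls and -2.25, -2.24 and -2.10 in the ARD1 libraries, a 5.17-fold difference. That of ATF5 to ATF4 was -1.71, -1.95 and -1.92 in the controls and -0.65, -0.73 and -0.64 in the ARD1 libraries. TRIB3 to ATF4 went the other way, from 0.03, -0.26 and -0.21 to -0.40, -0.59 and -0.42. None of these ratios overlapped between the groups (exact permutation p = 0.1 each, adjusted 0.125). The ratio of EIF2AK3 to EIF2AK1 did overlap, at -3.22 ± 0.0424 and -3.20 ± 0.0936 (SD, n = 3; exact permutation p = 0.7).

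**Figure D4:**
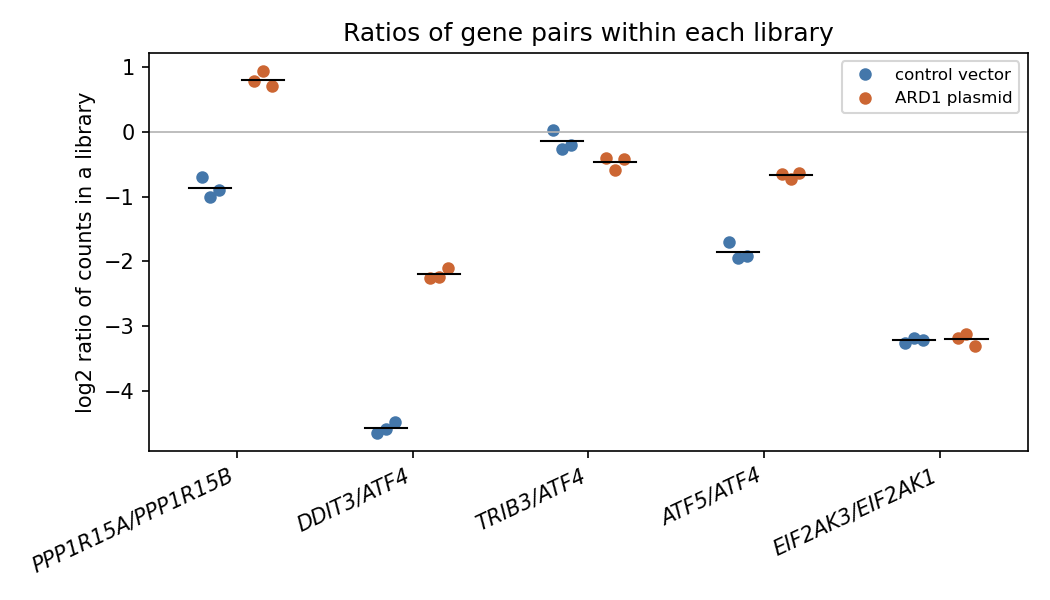
log2 ratio of the counts of 2 genes within each library (vertical axis) for the 5 pairs compared, control vector in blue and ARD1 plasmid in orange, black lines at group means. The PPP1R15A to PPP1R15B ratio crosses from below 0 to above 0, the DDIT3 and ATF5 ratios to ATF4 move up, the TRIB3 ratio to ATF4 moves down, and the EIF2AK3 to EIF2AK1 ratio overlaps between groups.

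The order of the 10 genes by level per kilobase of the longest coding transcript was rearranged. In the controls ATF4 (197 ± 2.52 CPM per kb) and TRIB3 (144 ± 14.6) led, followed by EIF2AK1 (66.4), ATF5 (52.9), PPP1R15A (29.4), PPP1R15B (24.5), DDIT3 (15.7), EIF2AK4 (9.45), GDF15 (8.93) and EIF2AK3 (6.86). In this order EIF2AK4 and GDF15 did not differ beyond their spread, since the libraries of GDF15 ran from 7.89 to 9.97 CPM per kb. In the ARD1 libraries ATF4 (214 ± 7.15) was followed by ATF5 (131 ± 2.92), TRIB3 (125 ± 6.84) and PPP1R15A (122 ± 11.1), whose libraries overlapped. GDF15 (99.4 ± 4.49) and DDIT3 (88.2 ± 2.46) came next, above EIF2AK1 (67.1), PPP1R15B (31.8), EIF2AK4 (15.2) and EIF2AK3 (7.04). With the length of all exon bases PPP1R15B stood above PPP1R15A in the controls, at 24.5 and 22.6 CPM per kb, and EIF2AK4 was the lowest there, at 4.35. On that length DDIT3 (72.0) stood above GDF15 (57.1) in the ARD1 libraries, and PPP1R15A (94.1) above ATF5 (91.6) and TRIB3 (90.8).

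Libraries of a group differed little for most of these genes. The coefficient of variation was between 0.936% (EIF2AK3) and 11.6% (GDF15) in the controls and between 0.590% (PPP1R15B) and 9.07% (PPP1R15A) in the ARD1 libraries. Control replicate 1 was the highest control for TRIB3, ATF5, GDF15, PPP1R15A, EIF2AK1 and EIF2AK4 and the lowest for ATF4, DDIT3, EIF2AK3 and PPP1R15B. Without it 7 of the 10 genes were higher and 1 lower, in place of 6 and 1.

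By the similarity of their level across the 6 libraries, measured as the root-mean-square difference of centred log2 CPM among 13750 genes, the nearest genes to ATF4 were YWHAE (0.0223), WSB1 (0.0227) and CAPN2 (0.0236). Nearest to DDIT3 were IFITM10 (0.0666), SLC16A6 (0.0762) and the growth factor gene EREG (0.0876), and nearest to PPP1R15A were the cytokine gene IL18 (0.0343), the receptor gene KDR (0.0726) and CGN (0.0737). The first 3 differed between the groups by a log2 fold change of 0.10 to 0.14 (WSB1 by -0.11 with GC and length trends removed), those near DDIT3 by 2.41 to 2.63 and those near PPP1R15A by 2.05 to 2.13. This is a description of likeness over 6 libraries in 2 groups.

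Of 10 genes tested, EIF2AK2 and 9 regulators of the kinases, 4 rose and 3 fell, near the 32.4% and 32.2% of all genes, with a median log2 fold change of 0.06. DELE1, the mitochondrial messenger that activates EIF2AK1, fell from 31.8 ± 0.773 to 17.5 ± 0.647 CPM (SD, n = 3; -0.86, SE 0.0871), and OMA1, the protease that cleaves DELE1, did not pass (-0.13, adjusted p = 0.360). OMA1 passed as lower with GC and length offsets (-0.24) and without control replicate 1 (-0.28). IMPACT, an inhibitor of EIF2AK4, rose by 0.40, a call lost with GC and length trends removed (0.09), and GCN1, its activator, was level at 319 CPM in both groups (adjusted p = 0.998, lowest under any setting 0.00577). The EIF2AK2 activator PRKRA rose (0.65) and the EIF2AK2 inhibitor TARBP2 fell (-0.82). DNAJC3 (0.60), which restrains EIF2AK2 and EIF2AK3, and the adaptor NCK2 (0.38) rose. The related adaptor NCK1, named outside the rule given below, fell (-0.27, adjusted p = 0.0245, with 0.980 as the highest under any setting).

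Of 11 genes of eIF2, eIF2B and protein phosphatase 1, 3 rose and 6 fell, beside 32.4% and 32.2% of all genes, with a median of -0.18. With library totals 5 of the 11 rose and 3 fell, beside 7606 and 3486 of all 15816 genes under that setting. EIF2S1, which encodes eIF2α itself, rose from 63.2 ± 6.86 to 92.6 ± 7.60 CPM (0.55, SE 0.0910), and the γ subunit EIF2S3 fell (-0.39). EIF2B1, the α subunit of eIF2B, fell from 114 ± 2.93 to 54.1 ± 0.577 CPM (-1.08, SE 0.0691) and EIF2B5, the catalytic ε subunit, by less (-0.50). The eIF2B genes did not move together: EIF2B2 (0.31) and EIF2B3 (0.35), named outside the rule given below, rose. The adjusted p of EIF2B3 was 0.0121 and reached 0.0778 under another setting. The phosphatase catalytic subunits PPP1CA (-0.57) and PPP1CB (-0.35) fell while both PPP1R15 targeting subunits rose. The calls of EIF2S3 (-0.13) and PPP1CB (-0.09) were lost with library totals. EIF2S2 (0.07) and EIF2B4 (0.04) did not pass, but did as higher with library totals (0.33 and 0.30), and EIF2B4 also with GC and length offsets (0.28).

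Among 12 bZIP partners and competitors of ATF4 and CHOP, 8 rose and 2 fell (median 0.68), beside 32.4% and 32.2% of all genes. ATF3, itself a target of ATF4, went from 7.29 ± 0.881 to 45.0 ± 3.39 CPM (2.63, SE 0.110). NFE2L2 (1.84) and NFE2L1 (1.04), genes of stress transcription factors, also rose. The dimer partners CEBPB (0.86) and CEBPG (0.85) rose to a like extent and CEBPD fell (-0.98). BATF3 (0.58, adjusted p = 0.0558) and BATF2 (-0.04) did not pass. Under 8 of the 17 other settings BATF3 passed as higher, at 0.996 with GC and length offsets and 0.87 without control replicate 1. Of the 8 tested genes in a list of family relatives and GADD45 genes, 5 rose and 2 fell (median 0.29), beside the same shares of all genes. The growth arrest genes GADD45A (1.42), GADD45G (1.10) and GADD45B (0.36) rose, as did ATF2 (0.34), whereas TRIB1 (-0.34), a pseudokinase related to TRIB3, and ATF6B (-0.85) fell. The TRIB1 call was lost with library totals (-0.08). ATF7 (0.03) did not pass except with library totals (0.29), and once GC and length trends were taken out ATF2 was at -0.01 (adjusted p = 0.891, between 0.000170 and 0.898 over all other settings). TRIB2 was not analysed here.

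Of 39 tested ATF4 targets outside the 10 genes, 29 rose and 7 fell, with a median log2 fold change of 0.60, beside 32.4% and 32.2% of all genes. CTH, which makes cysteine, went from 5.66 ± 0.544 to 37.0 ± 2.80 CPM (SD, n = 3; 2.71, SE 0.112) and CHAC1, which degrades glutathione, rose by 2.13 (SE 0.120). The amino acid transporter chains SLC7A11 (1.73) and SLC3A2 (1.47), the mTORC1 inhibitor gene SESN2 (1.72) and the stress regulator NUPR1 (1.33) rose as well. ASNS, the asparagine synthetase, rose from 3.53 ± 0.568 to 14.2 ± 0.206 CPM, 4.01-fold. Not all textbook targets followed: SHMT2, of mitochondrial one-carbon metabolism, fell from 470.3 ± 60.5 to 194 ± 6.16 CPM (-1.28, SE 0.0859), and ADM2 (-0.66) and the alanyl-tRNA synthetase AARS1 (-0.41, a call lost with library totals at -0.14) fell too. ASNS, SHMT2, ADM2, AARS1 and MARS1 were singled out after their values were seen. SLC1A5 (0.11), EPRS1 (0.15) and PSPH (-0.11) did not pass. SLC1A5 passed as higher with GC and length offsets (0.46), with library totals (0.38) and without control replicate 1 (0.19), and EPRS1 with library totals (0.41) and upper-quartile scaling (0.19). MTHFD2 (0.139 and 0.106 CPM) and FGF21 (0.0303 and 0.106 CPM) were at or under the level of 3 counts in the means of both groups and were not tested. The list was written with earlier results of these counts known and is not independent evidence of its direction.

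Of 5 CHOP targets, 2 rose and 2 fell, near the 32.4% and 32.2% of all genes: BCL2L11 (0.59) and TNFRSF10A (0.44) rose, ERO1A (-0.60) and BBC3 (-0.27) fell, and TNFRSF10B, a death receptor, did not pass (-0.01, adjusted p = 0.887), while DDIT3 rose 5.62-fold. With library totals TNFRSF10B passed as higher (0.25). BBC3 lost its call with library totals (-0.0064) and without ARD1 replicate 2 (-0.23), and passed as higher once GC and length trends were taken out (0.33, adjusted p = 8.65e-05, between 3.54e-05 and 0.950 over all other settings). Of 18 genes of the IRE1 and ATF6 arm 9 rose and 8 fell (median 0.14), beside 32.4% and 32.2% of all genes. The sensors ERN1 (2.08) and ATF6 (1.25) and the degradation adaptor SEL1L (1.24) rose, and the folding factors PDIA4 (-0.92), HSP90B1 (-0.83) and CRELD2 (-1.001) fell. HSPA5, the chaperone that binds the sensors, was at 829 ± 20.5 and 857.5 ± 13.4 CPM (SD, n = 3) and did not pass (0.05, adjusted p = 0.515) except with library totals (0.31). Of 9 mitochondrial stress genes (median -0.09) 2 rose and 3 fell, near those shares: YME1L1 (0.34) and TIMM17A (0.24) rose, and CLPP (-0.71), HSPE1 (-0.64) and LONP1 (-0.48) fell. With GC and length offsets YME1L1 (0.096), TIMM17A (0.075) and LONP1 (-0.087) lost their calls. TIMM17A also lost it without control replicate 2 (0.23) and without ARD1 replicate 1 (0.25), 2 (0.21) or 3 (0.25). The other 4 did not pass, among them DNAJA3 (0.12), HSPA9 (0.11) and CLPX (-0.09). With GC and length offsets DNAJA3 passed as higher (0.24) and CLPX as lower (-0.32), as both did without control replicate 1 (0.15 and -0.16). With library totals DNAJA3 (0.38) and HSPA9 (0.37) passed as higher, HSPA9 also with upper-quartile scaling (0.15).

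**Figure D5:**
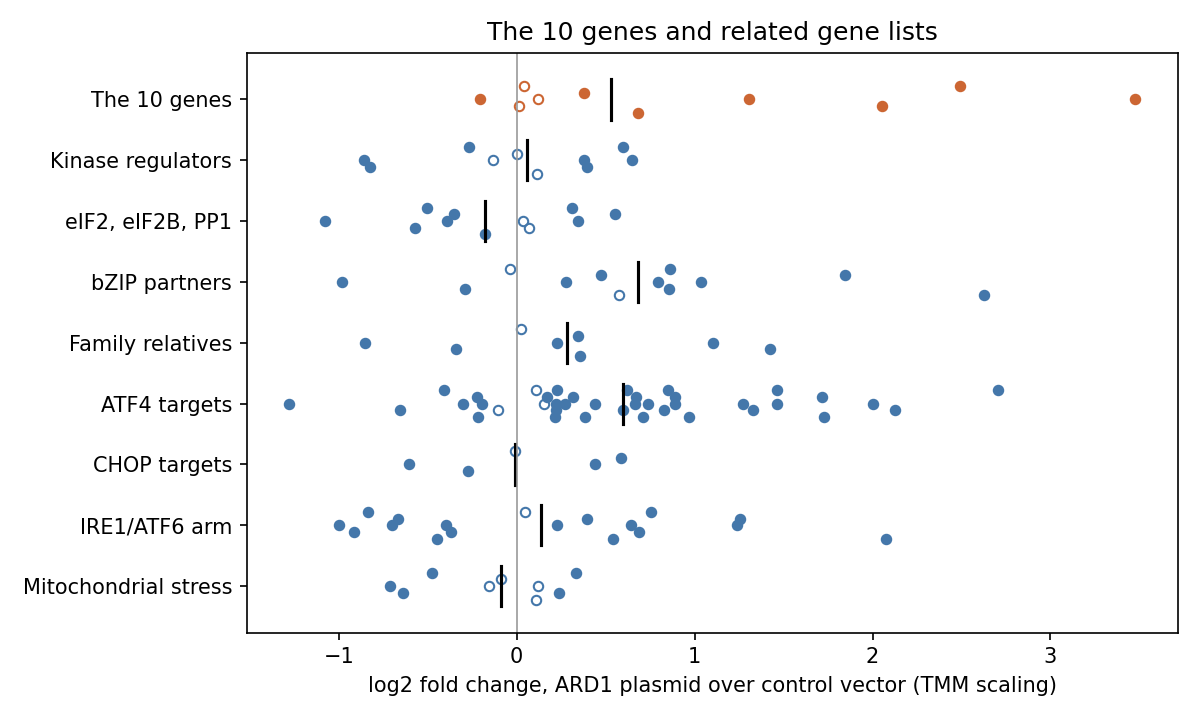
log2 fold change of each tested gene, ARD1 plasmid over control vector with TMM scaling (horizontal axis), for the 10 genes (orange) and 8 related lists (blue), filled where the adjusted p is under 0.05 and open otherwise, with the list median as a black line. The ATF4 targets and bZIP partners lie mostly right of 0 with medians of 0.60 and 0.68. The CHOP targets outside the 10 genes and the IRE1 and ATF6 arm lie on both sides.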

How the data were processed

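The authors deposited raw whole-number counts per Ensembl gene, without normalization. Libraries were depleted of ribosomal RNA and directional, per the labels' protocols. The submitters' processing notes name GRCh38, STAR 2.7.11b and cutadapt 4.6. The counter, strand setting and annotation were not given in the sources used here. Symbols matched 25052 of 25071 identifiers, and 23118 were found in GENCODE 29. Groups and replicate numbers came from the sample titles. Counts are not independent molecules without molecular identifiers, so limits of detection cover counting error only.

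Genes were kept by edgeR's filterByExpr (15816) and scaled by TMM. The main test was the quasi-likelihood test of edgeR 4.0.16 in R 4.3.3. It used all 6 libraries, Benjamini-Hochberg adjustment across every gene tested and a threshold of 0.05. Adjusted p-values in the text come from this test unless an exact test, another setting or a range over settings is named. Such ranges take in all the alternative fits listed below. Standard errors were derived from the F statistic, and CPM values are given as mean ± SD. Within-library ratios had 0.5 added to each count, took no GC or length offsets and were compared by two-sided exact permutation tests. Alternatives were no scaling factors, RLE and upper-quartile factors, NAA10 left out of library sizes, no filter, at least 1 CPM in 3 libraries, voom in limma 3.58.1, DESeq2 1.42.0, the replicate block, per-library offsets for GC content and length, both together, 2 added in ratios, and each library left out. Lengths over all exon bases were tried after seeing the data. The fits were run on simulated data in which far fewer genes were given a fold change than passed here. Scaling between libraries where most genes differ was therefore not tested.

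The 10 genes, the lists and the motifs were chosen with earlier results of these data known. The text names, of each related list, up to 6 genes with the smallest p among those past the threshold and up to 3 with the largest p among those not past it, any member removed by the filter, and the 3 genes nearest in pattern to ATF4, DDIT3 and PPP1R15A with at least 1 CPM (log2 CPM with a prior count of 2); genes named outside this rule are said to be so.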

Additional observations from a re-analysis of the deposited data

How the results depend on the processing

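Libraries held 21857327 to 25011357 counts, and genes that the filter on low counts removed, such as MTHFD2 and FGF21, have no test in the text. The count of all genes called stayed between 9271 and 10984 when each library was left out, of 16184 to 16327 tested. Of those called 4586 to 5414 were higher and 4685 to 5570 lower. Of the 10 genes, none (0) was lower with upper-quartile scaling, with library totals, with GC and length offsets or with those offsets and the replicate block. With each library left out in turn, 6 to 7 of the 10 were higher and 0 to 1 lower. In the same way kinase regulators gave 4 to 4 higher and 2 to 4 lower, and eIF2, eIF2B and phosphatase genes 2 to 3 and 5 to 6. The bZIP partners gave 6 to 8 and 2 to 2, and the list of family relatives and GADD45 genes 4 to 5 and 2 to 2. ATF4 targets gave 24 to 30 and 4 to 7, and CHOP targets 2 to 2 and 1 to 2. IRE1 and ATF6 genes gave 8 to 9 and 8 to 8, and mitochondrial stress genes 1 to 3 and 3 to 5. Of all 15816 genes tested 7606 were higher and 3486 lower with library totals, and 5534 and 4818 with upper-quartile scaling. The counts were 5310 and 5462 with GC and length offsets, and 5261 and 5423 with the replicate block added. With library totals 5 eIF2, eIF2B and phosphatase genes were higher and 3 lower, and 4 mitochondrial genes were higher. Under that setting 1 bZIP partner, 1 family relative, 2 ATF4 targets and 1 CHOP target were lower. With GC and length offsets, alone or with the replicate block, 5 kinase regulators, 1 bZIP partner and 1 CHOP target were lower. Under the same settings 3 genes of the list of family relatives and GADD45 genes and 1 mitochondrial gene were higher. The cause of these moves was not tested. Titles give both groups replicate numbers 1 to 3. Deviations of same-numbered libraries correlated at 0.017, -0.036 and 0.034, and not every library correlated best with its own number. These values show no strong pattern shared by number. Being weak, they cannot decide whether same-numbered libraries were handled together. With the replicate block 10293 genes were called in place of 10223, and of the 10 genes 6 were higher and 1 lower.

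The sign of some log2 fold changes turned. With GC and length offsets, first alone and then with the replicate block, EIF2AK1 stood at -0.075 and -0.074, EIF2AK3 at -0.098 and -0.0998, TRIB3 at 0.143 and 0.142, EIF2AK2 at -0.245 and -0.246, WSB1 at -0.113 and -0.111, GCN1 at 0.111 both times, BATF2 at 0.242 and 0.255, ATF2 at -0.0090 both times, ATF7 at -0.072 and -0.071, EPRS1 at -0.028 both times, BBC3 at 0.333 and 0.334, HSPA5 at -0.038 and -0.037, and HSPA9 at -0.059 both times. With library totals TRIB3 was at 0.063, OMA1 at 0.128, GCN1 at 0.268, BATF2 at 0.229, PSPH at 0.159, TNFRSF10B at 0.254 and CLPX at 0.174. With upper-quartile scaling GCN1 was at 0.043, BATF2 at 0.0070 and TNFRSF10B at 0.032. EIF2AK1 was at -0.0025 with RLE scaling and with DESeq2. GCN1 was at 0.0055 with the filter of 1 CPM, 0.0061 with limma-voom and 0.0060 with the replicate block. With each library left out in turn the values ran from -0.029 to 0.026 for EIF2AK1, from -0.011 to 0.094 for EIF2AK3, from -0.109 to 0.088 for GCN1, from -0.070 to 0.146 for EIF2S2, from -0.042 to 0.088 for EIF2B4, from -0.191 to 0.071 for BATF2, from -0.038 to 0.070 for ATF7 and from -0.059 to 0.011 for TNFRSF10B. The within-library ratio of EIF2AK3 to EIF2AK1 ran from -0.019 to 0.072, that of PPP1R15A to PPP1R15B from 1.60 to 1.76, DDIT3 to ATF4 from 2.32 to 2.42, ATF5 to ATF4 from 1.14 to 1.27 and TRIB3 to ATF4 from -0.38 to -0.23.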
